A study of Homo sapiens with 12 samples.

Results

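Transcripts of 10 genes of the transforming growth factor beta (TGF-beta) and bone morphogenetic protein (BMP) pathways were followed in G401, an established human rhabdoid tumour cell line. They are the ligands BMP2, BMP4, BMP7, TGFB1, TGFB2, TGFB3 and INHBA and the target genes ID1, ID2 and ID3. They were chosen by name, as 10 of the 57820 gene identifiers in the deposited tables. All libraries carry the genotype SMARCB1(-/-), so every cell state lacks the endogenous SMARCB1 protein, a core subunit of the SWI/SNF chromatin remodelling complexes. Doxycycline induced either GFP, which served as control, or SMARCB1. Both kinds of cells then received DMSO, the solvent, or dBRD9-A for 24 hours. dBRD9-A is a small molecule that causes degradation of BRD9, a subunit of the non-canonical SWI/SNF complex. The 4 groups were GFP in DMSO, GFP with dBRD9-A, SMARCB1 in DMSO and SMARCB1 with dBRD9-A, with 3 libraries each. The labels give neither the length of the doxycycline induction nor the dose of dBRD9-A. All libraries come from this single cell line, and nothing in the labels says whether the 3 libraries of a group are separate cultures, so p-values measure the spread between these libraries, which may be technical.

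TGF-beta, activin and BMP ligands are secreted dimers that bring type I and type II receptor kinases together. TGF-beta and activin receptors phosphorylate SMAD2 and SMAD3, and BMP receptors phosphorylate SMAD1, SMAD5 and SMAD9. The phosphorylated SMADs enter the nucleus with SMAD4 and act on genes such as ID1, ID2 and ID3, which are classical direct targets of BMP signalling. ID proteins have a helix-loop-helix domain without a DNA-binding region, bind E proteins such as TCF3, TCF4 and TCF12, and keep them from DNA.

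Between 34.97 and 58.54 megacounts (units of 1e6 counts) fell on genes in each library. SMARCB1 had 0 or 1 count per library in GFP cells in DMSO, 1 or 2 counts in GFP cells with dBRD9-A, and 1807 to 1912 counts per megacount (CPM) in SMARCB1 cells in DMSO. SMARCB1 was lower in SMARCB1 cells with dBRD9-A, at 1277 to 1327 CPM (log2 fold change -0.52, adjusted p = 4.95e-08). The transcript of BRD9 was at 38.3 ± 1.20 CPM in GFP cells in DMSO, against 41.1 ± 0.847 CPM after dBRD9-A (adjusted p = 0.146), which does not bear on the protein. The rhabdoid markers VIM, KRT8 and KRT18 were at 1256 CPM or more in every library. PTPRC, a blood cell marker, was at 0 in every library, and CDH5, an endothelial marker, was at 0 in GFP cells and at 3 to 10 counts in SMARCB1 cells. Of the remaining markers of other cell types, EPCAM (epithelium) averaged at most 0.679 CPM and DES (muscle) at most 1.61 CPM in any group. The library SMARCB1 with dBRD9-A replicate 2 lay farthest from its group, with a root mean square log2 deviation of 0.125 against 0.0866 to 0.118 in the other 11.

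The start regions of ID1, ID2 and ID3 are shown because all 3 genes rose with dBRD9-A in GFP cells. RefSeq windows on GRCh38.p14, running from 250 bases before to 50 bases after a gene's start, were at hand for 8 of the 10 genes. The 250 bases before the start are printed 5′ to 3′ on the strand of the gene, with each GTCT and its reverse complement AGAC, the short element that SMAD3 and SMAD4 contact, in capitals. The coordinates are chr20:31605039-31605288 on the plus strand for ID1, chr2:8681806-8682055 on the plus strand for ID2, and chr1:23559502-23559751 on the minus strand for ID3.
ID1: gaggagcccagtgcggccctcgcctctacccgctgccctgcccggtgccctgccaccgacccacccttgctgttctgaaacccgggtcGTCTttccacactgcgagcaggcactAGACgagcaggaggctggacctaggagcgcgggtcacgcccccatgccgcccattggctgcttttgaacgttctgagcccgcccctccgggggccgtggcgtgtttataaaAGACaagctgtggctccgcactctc
ID2: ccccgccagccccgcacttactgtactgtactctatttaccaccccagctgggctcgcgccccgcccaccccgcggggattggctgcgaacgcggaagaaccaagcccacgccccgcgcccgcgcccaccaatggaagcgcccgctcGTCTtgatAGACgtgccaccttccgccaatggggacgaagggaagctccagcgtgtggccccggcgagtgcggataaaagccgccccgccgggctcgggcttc
ID3: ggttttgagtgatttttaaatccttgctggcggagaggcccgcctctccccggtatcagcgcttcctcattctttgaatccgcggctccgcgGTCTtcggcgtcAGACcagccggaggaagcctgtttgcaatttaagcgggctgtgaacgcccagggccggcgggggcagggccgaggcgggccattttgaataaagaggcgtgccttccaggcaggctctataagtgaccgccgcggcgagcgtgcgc
In the whole windows of 300 bases the element occurred 3 times for ID1, 2 times for ID2 and 2 times for ID3, and it was present in 84.0% of the 35116 RefSeq windows of the same length. The GC-rich element GGCGCC, described for BMP SMADs, was not in the windows of the 3 ID genes and was in 19.2% of all windows. The palindrome GTCTAGAC was in none of the 11 windows of the listed genes and in 0.202% of all windows. The E-box CANNTG, the element of the E proteins, occurred once in the ID2 window, was not in those of ID1 and ID3, and was in 68.7% of all windows. These elements were searched on both strands, and GTCTAGAC contains GTCT and AGAC. A match describes letters in the window and is not a measured site.

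Re-expression of SMARCB1 changed the ligands in opposite directions. The effect of SMARCB1 was read from SMARCB1 against GFP cells in DMSO, by edgeR's quasi-likelihood test with Benjamini-Hochberg adjustment over 15750 genes and a threshold of adjusted p under 0.05. Levels are in CPM on library sizes scaled by TMM (trimmed mean of M values), as mean ± SD over 3 libraries, and they are not corrected for gene length, so levels of different genes are not compared. Of the 10 genes, 7 passed the filter on low counts and could be tested. In this comparison 6 of the 7 passed, 3 higher and 3 lower, where 65% of all tested genes passed, 33.5% higher and 31.6% lower. The median log2 fold change was -0.40 over the 7 genes and -0.0047 over all tested genes.

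BMP7, a ligand central to kidney development, was almost lost with SMARCB1. In GFP cells in DMSO its level was 93.9, 100.1 and 94.8 CPM, and in SMARCB1 cells in DMSO it was 2.70, 3.15 and 2.74 CPM. All SMARCB1 libraries lay far below all GFP libraries. BMP7 fell by 5.08 on the log2 scale (SE 0.0529, adjusted p = 1.48e-21), a level 33.8-fold lower, the largest change among the 7 genes. In these bulk samples, fewer cells with a transcript and less RNA per cell cannot be told apart.

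BMP4, a BMP of another subfamily, moved the other way. Its level was 164.6, 169.1 and 171.3 CPM in GFP cells in DMSO, and it was 238, 239.2 and 232.4 CPM in SMARCB1 cells in DMSO. The groups did not overlap. BMP4 rose by 0.49 on the log2 scale (SE 0.0265, adjusted p = 2.13e-11).

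TGFB1, the most widely expressed TGF-beta, was at 10.2, 10.6 and 10.8 CPM in GFP cells in DMSO and at 15.9, 17.0 and 16.2 CPM in SMARCB1 cells in DMSO. The lowest SMARCB1 library was above the highest GFP library. TGFB1 rose by 0.64 on the log2 scale (SE 0.100, adjusted p = 2.25e-05). TGFB3, a TGF-beta of palate and lung development, had 28 to 71 counts per library. It was at 1.17, 1.58 and 1.07 CPM in GFP cells and at 0.916, 0.958 and 0.981 CPM in SMARCB1 cells in DMSO, a change of -0.40 on the log2 scale that did not pass (SE 0.21, adjusted p = 0.112). The 95% interval of the TGFB3 difference ran from -0.84 to 0.05.

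The 3 ID genes did not share a direction with SMARCB1. ID1, the best-known BMP target of the family, was at 140.2, 132.7 and 145.8 CPM in GFP cells in DMSO and at 197, 175.5 and 192 CPM in SMARCB1 cells in DMSO, with no overlap. ID1 rose by 0.43 on the log2 scale (SE 0.0582, adjusted p = 4.02e-06).
ID2, which can also bind the retinoblastoma protein, was at 65.2, 61.8 and 64.2 CPM in GFP cells and at 45.3, 42.0 and 42.8 CPM in SMARCB1 cells. ID3 was at 366, 375 and 378 CPM in GFP cells and at 289, 268 and 281 CPM in SMARCB1 cells. For ID2 and ID3 each SMARCB1 library was below each GFP library. ID2 fell by 0.56 (SE 0.0346, adjusted p = 1.51e-10) and ID3 fell by 0.42 on the log2 scale (SE 0.0327, adjusted p = 3.69e-09).

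**Figure D1:**
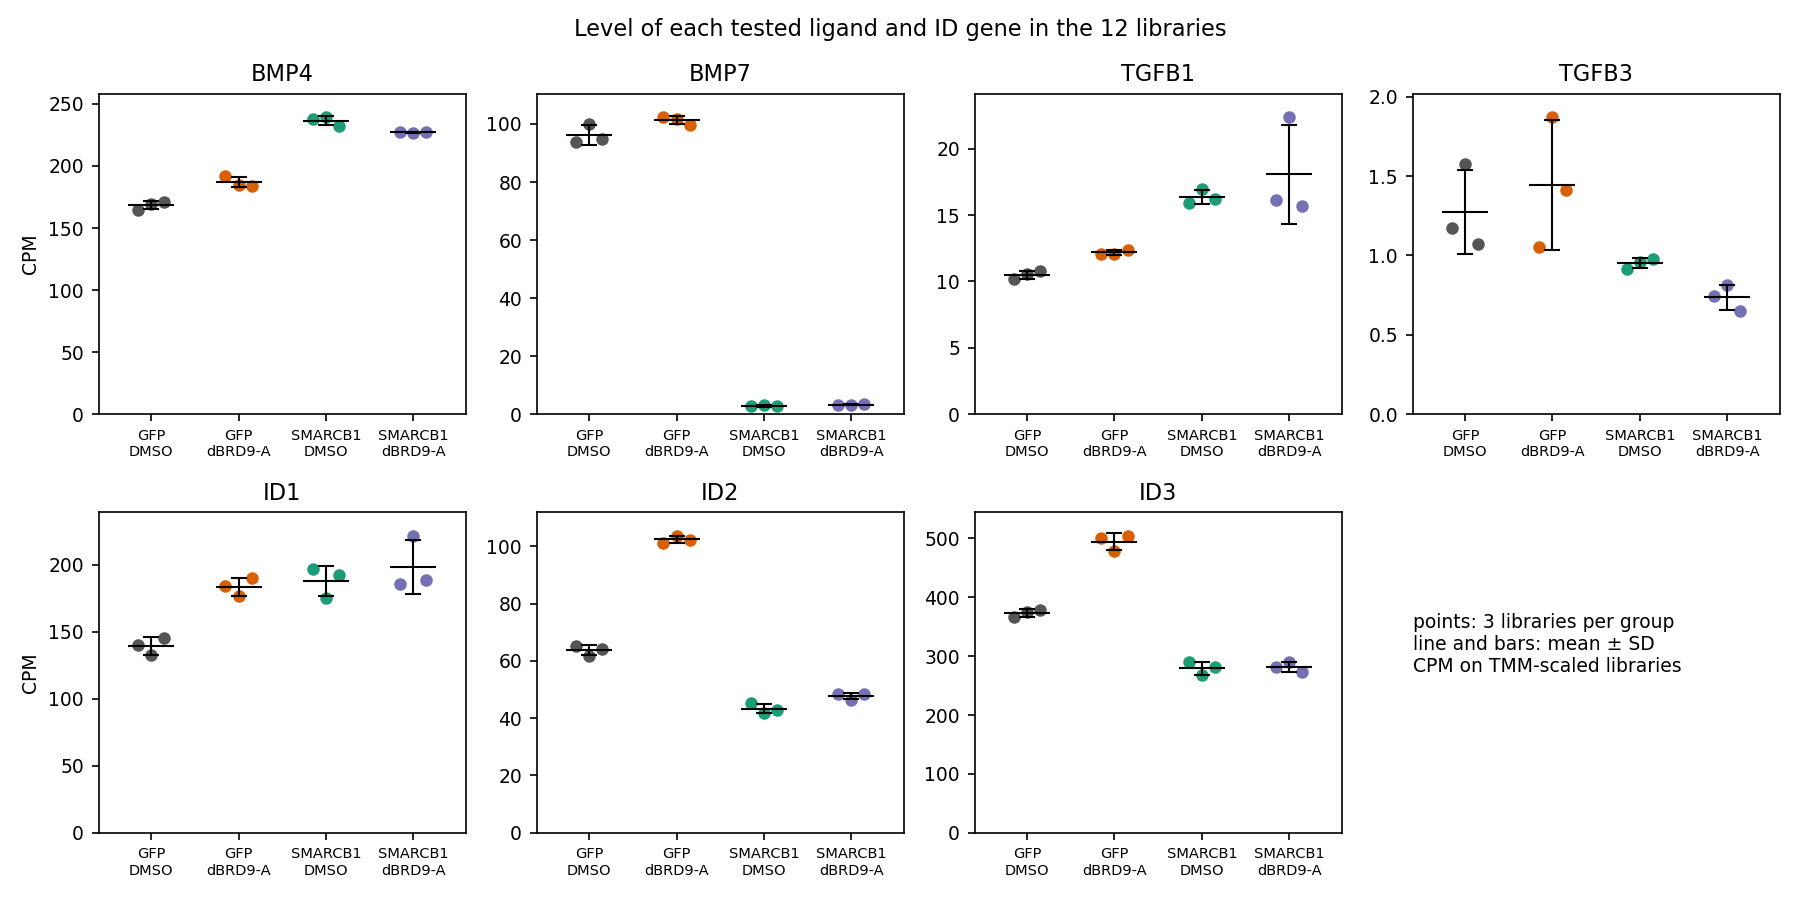
Level in CPM (vertical axis, linear, from 0) of the 7 tested genes in the 4 groups. Points are the 3 libraries of a group and the bars give mean ± SD. BMP7 lies near 100 CPM in GFP cells and near 3 CPM in SMARCB1 cells, and the 3 ID genes are higher with dBRD9-A than with DMSO in GFP cells.

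With dBRD9-A in GFP cells, which lack SMARCB1, the 3 ID genes and BMP4 rose, and none of the 7 genes fell. The comparison of dBRD9-A with DMSO in GFP cells shows the effect of the degrader without SMARCB1. Of the 7 tested genes 4 passed, all higher, where 15.9% of all tested genes passed, 7.43% higher and 8.47% lower. The median log2 fold change was 0.21 over the 7 genes and -0.00046 over all tested genes.

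ID2 changed most of the 7. It went from 61.8 to 65.2 CPM in DMSO to 101, 104 and 102 CPM in the libraries GFP with dBRD9-A. The groups were far apart, and ID2 rose by 0.68 on the log2 scale (SE 0.0331, adjusted p = 1.95e-10), or 1.61-fold. ID3 reached 501, 478 and 505 CPM with dBRD9-A, above all DMSO libraries, and rose by 0.41 (SE 0.0325, adjusted p = 1.00e-07). ID1 reached 185, 177 and 190 CPM with dBRD9-A, again without overlap, and rose by 0.40 (SE 0.0584, adjusted p = 0.000125).

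Among the ligands BMP4 showed a small rise, to 192, 185 and 184 CPM with dBRD9-A, every value above the DMSO libraries. The BMP4 log2 fold change was 0.15 (SE 0.0266, adjusted p = 0.000638). BMP7 was at 102, 101.8 and 99.7 CPM with dBRD9-A, overlapping the DMSO libraries, a log2 fold change of 0.07 (95% interval 0.0016 to 0.15, adjusted p = 0.17). TGFB1 was at 12.1, 12.1 and 12.4 CPM with dBRD9-A, above all 3 DMSO libraries, but its log2 fold change of 0.21 did not pass in the fit over 12 libraries (SE 0.105, adjusted p = 0.199). TGFB1 passed when the fit held the 6 GFP libraries alone (0.22, adjusted p = 0.0143), without the low-count filter (0.20, adjusted p = 0.0404) and without the library SMARCB1 with dBRD9-A replicate 2 (0.21, adjusted p = 0.00808), whose own TGFB1 level of 22.4 CPM stood apart from 16.1 and 15.7 CPM in its group. TGFB3 was at 1.05, 1.87 and 1.41 CPM with dBRD9-A, across the range of the DMSO libraries (log2 fold change 0.19, 95% interval -0.24 to 0.62, adjusted p = 0.596), and its value was -0.04 without GFP with dBRD9-A replicate 2 and 0.39 without replicate 1 of that group.

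With dBRD9-A in SMARCB1 cells, none of the 7 tested genes passed, where 1.93% of all tested genes passed, 0.679% higher and 1.25% lower. The count was 0 by edgeR's quasi-likelihood test and by DESeq2. BMP4, BMP7 and ID2 had an unadjusted p under 0.05 in the edgeR fit. The share of all tested genes under that unadjusted threshold was not computed, so no result is read from it. The median log2 fold change was 0.08 over the 7 genes and 0.0028 over all tested genes. The lower level of the SMARCB1 transcript in the dBRD9-A libraries given above moves with this comparison, and its part in these values was not tested.

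ID3 was at 289, 268 and 281 CPM in DMSO and at 281, 289.6 and 274 CPM with dBRD9-A in SMARCB1 cells. The groups overlapped, and the log2 fold change was 0.01 (95% interval -0.06 to 0.08, adjusted p = 0.934), or -0.13 with spike-in scaling. ID1 overlapped too, with 186, 222 and 188.5 CPM with dBRD9-A and a log2 fold change of 0.08 (95% interval -0.04 to 0.20, adjusted p = 0.633). Without the library SMARCB1 with dBRD9-A replicate 2, the highest of its group, the ID1 value was -0.01 (adjusted p = 0.955), and with spike-in scaling it was -0.06 (adjusted p = 0.54).
ID2 came close to the threshold, at 45.3, 42.0 and 42.8 CPM in DMSO and 48.4, 46.4 and 48.5 CPM with dBRD9-A, without overlap. Its log2 fold change was 0.14 (95% interval 0.07 to 0.21, adjusted p = 0.0544). ID2 passed without SMARCB1 in DMSO replicate 1 (0.17, adjusted p = 0.0293), without SMARCB1 with dBRD9-A replicate 2 (0.16, adjusted p = 0.0331) and without the low-count filter (0.14, adjusted p = 0.0268), whereas with spike-in scaling its value was 0.0024 (adjusted p = 0.984).

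The tested ligands did not pass in SMARCB1 cells either, and their log2 fold changes had different signs. BMP4 was at 227, 226.5 and 227.5 CPM with dBRD9-A, just below the 232.4 CPM of the lowest DMSO library (log2 fold change -0.06, 95% interval -0.11 to -0.0027, adjusted p = 0.36). BMP7 was at 3.18, 3.17 and 3.51 CPM with dBRD9-A, above its DMSO libraries by little (0.20, 95% interval 0.03 to 0.38, adjusted p = 0.355). TGFB1 was at 16.1, 22.4 and 15.7 CPM (0.15, adjusted p = 0.552), and its value without replicate 2 was -0.04 (adjusted p = 0.809). TGFB3 was at 0.746, 0.811 and 0.652 CPM with dBRD9-A, below all DMSO libraries, with a log2 fold change of -0.37 that did not pass (95% interval -0.86 to 0.13, adjusted p = 0.566).

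The responses to dBRD9-A in SMARCB1 and GFP cells share no library, so their difference was tested directly as the interaction in the same fit. It passed for 4 of the 7 genes, BMP4, ID1, ID2 and ID3, all negative, where 3.8% of all tested genes passed, 2.15% positive and 1.65% negative. The response of ID2 was smaller in SMARCB1 cells by 0.54 on the log2 scale (interaction -0.54, 95% interval -0.65 to -0.44, adjusted p = 3.08e-06). For ID3 the interaction was -0.40 (95% interval -0.49 to -0.30, adjusted p = 5.54e-05), and for BMP4 it was -0.21 (95% interval -0.29 to -0.13, adjusted p = 0.00266). In these 3 genes each pairwise difference between libraries in SMARCB1 cells lay below each one in GFP cells. That separation comes from the same libraries as the test. Its share among all tested genes was not computed, so no further result is read from it.

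For ID1 the interaction was -0.32 (95% interval -0.49 to -0.14, adjusted p = 0.0378), with pairwise differences that overlapped. The ID1 interaction did not pass with the replicate number as a block (-0.32, adjusted p = 0.0683) nor in 9 of 12 fits that each left out 1 library, where its adjusted p reached 0.113; these 9 left out GFP in DMSO replicates 1 or 2, GFP with dBRD9-A replicates 1, 2 or 3, SMARCB1 in DMSO replicates 1 or 3, or SMARCB1 with dBRD9-A replicates 1 or 3. Without SMARCB1 with dBRD9-A replicate 2 the ID1 interaction was -0.41 (adjusted p = 0.000596). The interaction did not pass for BMP7 (0.13, adjusted p = 0.586), TGFB1 (-0.06, adjusted p = 0.898) and TGFB3 (-0.56, adjusted p = 0.402). Leaving out 1 library gave -0.76 to -0.33 for TGFB3 and -0.26 to 0.02 for TGFB1, whose lowest value came without SMARCB1 with dBRD9-A replicate 2 (adjusted p = 0.0582). With spike-in scaling the interaction passed for TGFB1 (-0.57, adjusted p = 0.000367) and TGFB3 (-1.05, adjusted p = 0.00358). It passed there for BMP7 too, with the opposite sign (-0.37, adjusted p = 0.0102), so all 7 genes were called negative on that scale.

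**Figure D2:**
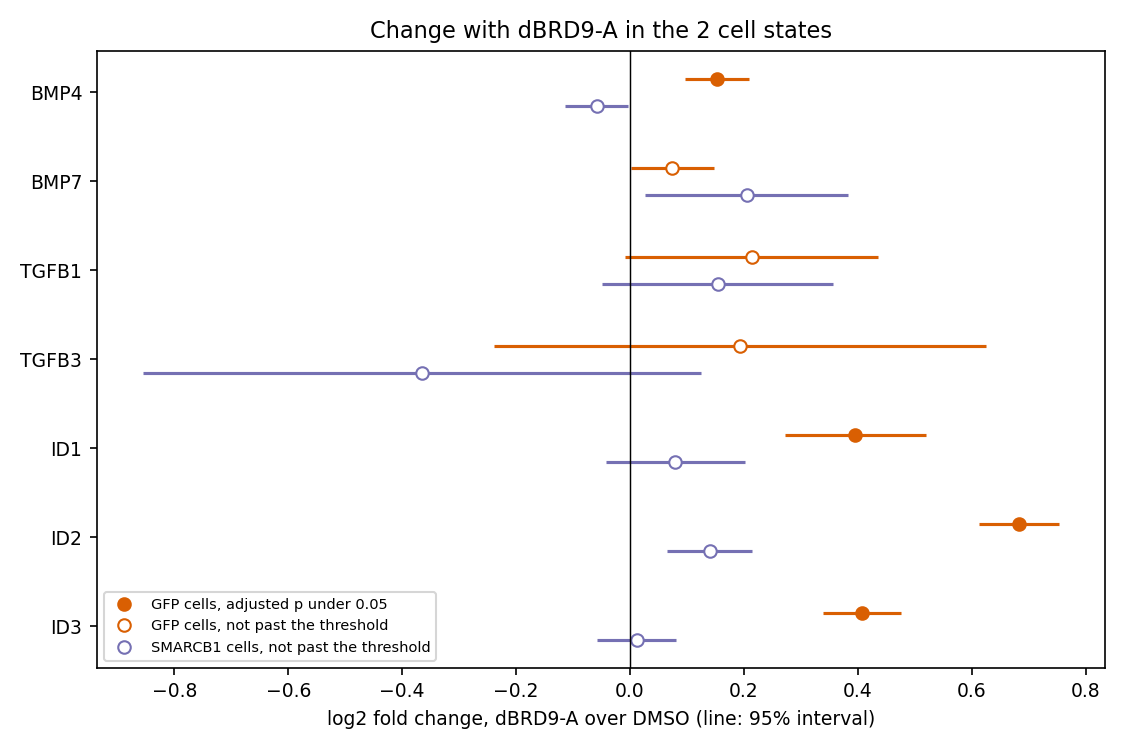
Log2 fold change of dBRD9-A over DMSO (horizontal axis) for the 7 tested genes, in GFP cells (orange) and SMARCB1 cells (purple), from fits over 12 libraries. Lines are 95% intervals and filled points have an adjusted p under 0.05. BMP4, ID1, ID2 and ID3 are filled in GFP cells, at 0.15, 0.40, 0.68 and 0.41, and no gene is filled in SMARCB1 cells.

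The effect of SMARCB1 was also read among the libraries with dBRD9-A. Here 6 of the 7 genes passed, 2 higher and 4 lower, where 63.3% of all tested genes passed, 33% higher and 30.4% lower. BMP7 was again far lower in SMARCB1 cells (log2 fold change -4.95, adjusted p = 1.98e-21), a level 30.8-fold lower. ID2 was lower by more than in DMSO, with a change of -1.10 on the log2 scale (SE 0.0341, adjusted p = 8.56e-15), and so was ID3, at -0.81 (SE 0.0328, adjusted p = 3.80e-13). The test of these differences between DMSO and dBRD9-A is the interaction above. TGFB3 was lower by this test (-0.95, SE 0.223, adjusted p = 0.0012), with 1.05 to 1.87 CPM in the GFP libraries and 0.652 to 0.811 CPM in the SMARCB1 libraries. TGFB1 was higher (0.58, adjusted p = 7.16e-05) and remained so without SMARCB1 with dBRD9-A replicate 2, at 0.38 (adjusted p = 1.31e-05), which moves the value by over 1.5 times.
BMP4 was higher, at 0.28 (adjusted p = 5.30e-08), but with spike-in scaling its value was -0.05 (adjusted p = 0.515). ID1 was the gene that did not pass, at 0.11 (adjusted p = 0.0969, 95% interval -0.0084 to 0.24), and with spike-in scaling it was lower, at -0.22 (adjusted p = 0.00882). Without SMARCB1 with dBRD9-A replicate 2 the ID1 value was 0.02 (adjusted p = 0.687).

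BMP2, TGFB2 and INHBA did not pass the filter in any comparison. INHBA, the activin A subunit, had 0 counts in all 12 libraries, and a count of 0 allows up to 3 counts, or 0.0516 to 0.0847 CPM depending on the library. BMP2 counts were 2 to 7 in GFP cells in DMSO, 0 to 2 with dBRD9-A, 1 to 4 in SMARCB1 cells in DMSO and 0 to 2 with dBRD9-A. TGFB2 had 3 to 11, 3 to 6, 3 to 10 and 0 to 6 counts in the same order of groups. The ranges of the 4 groups overlapped for both genes, and no difference was detectable at this depth. Such a limit covers counting error alone, because reads were counted without molecular identifiers.

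The order of the 4 groups differed from gene to gene. ID2 and ID3 were highest in GFP cells with dBRD9-A, then in GFP cells in DMSO, then in SMARCB1 cells, where the dBRD9-A and DMSO groups did not differ by the test. ID1 was lowest in GFP cells in DMSO, at 139.6 ± 6.57 CPM, and its other groups lay at 184 ± 6.70 (GFP with dBRD9-A), 188 ± 11.2 (SMARCB1 in DMSO) and 199 ± 20.1 CPM (SMARCB1 with dBRD9-A). Neighbours among these 3 differed by less than their SD. BMP4 went up from GFP in DMSO (168 ± 3.42 CPM) through GFP with dBRD9-A (187 ± 4.38 CPM) to SMARCB1 with dBRD9-A (227 ± 0.529 CPM) and SMARCB1 in DMSO (236.5 ± 3.63 CPM), the last pair not differing by the test.

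Genes with the most similar pattern were taken by Pearson's r of log2 CPM over the 12 libraries, which share the 4 groups, so an r describes these groups and carries no test. For BMP4 they were TGIF1 (r = 0.997) and RHBDL3 (r = 0.992), for BMP7 EFR3A and SLC18B1 (both r = 0.999), and for TGFB1 UBE2S (r = 0.985) and GNA11 (r = 0.983). For ID1 they were EGFL7 (r = 0.965) and ZBTB46 (r = 0.956), for ID2 FERMT2 (r = 0.994) and KBTBD11 (r = 0.991), and for ID3 HMOX1 (r = 0.993) and HMGCS1 (r = 0.991). TGFB3, with few counts, had lower values, with FAM21EP (r = 0.92) and PLEKHF2 (r = 0.917). No ID gene was among the 2 genes most similar to another.

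A further 93 genes of the pathway were set out in 9 lists, and 63 of them could be tested. With SMARCB1 in DMSO 50 of the 63 passed, 33 higher and 17 lower, which is 79.4% against 65% of all genes tested. After dBRD9-A in GFP cells 21 passed, 14 higher and 7 lower (33.3% against 15.9%), and with dBRD9-A in SMARCB1 cells 4 passed, 2 higher and 2 lower (6.35% against 1.93%). The median log2 fold change of the 63 genes was 0.21, 0.06 and -0.0013 in these 3 comparisons. Of all tested genes 33.5% were higher and 31.6% lower with SMARCB1 in DMSO. With dBRD9-A in GFP cells 7.43% were higher and 8.47% lower. The counts of the single lists below, each of few genes, stand next to these shares. The named genes are the called ones with the largest changes in each list, and TGFBR2 and SMAD1 are named in addition, chosen after their counts were seen.

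Among the other ligands, 11 of 26 could be tested. With SMARCB1 in DMSO 3 were higher and 4 lower, with GDF7 higher (log2 fold change 2.70) and BMP6, a BMP of the same subfamily as BMP7, lower (-1.83). In GFP cells 4 fell with dBRD9-A and none rose. GDF5, a joint-forming ligand, went from 5.42 ± 0.114 to 1.89 ± 0.562 CPM (log2 fold change -1.53, adjusted p = 5.86e-07). BMP6 went from 8.86 ± 0.188 to 5.03 ± 0.402 CPM (-0.82, adjusted p = 6.90e-06). GDF15 fell by less (-0.32, adjusted p = 0.0138), and with spike-in scaling its value was 0.04. GDF15 did not pass without GFP in DMSO replicate 3 (adjusted p = 0.0624) or GFP with dBRD9-A replicate 2 (adjusted p = 0.0515).

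Of 16 receptors and co-receptors, 13 could be tested, and 10 were higher and 1 lower with SMARCB1 in DMSO. The largest rises among those named were RGMB, a BMP co-receptor (2.39), TGFBR3, or betaglycan, which presents TGF-beta (2.33), and ACVRL1, a type I receptor (1.73). TGFBR2, the type II receptor that TGF-beta itself needs, had at most 1 count in any library. TGFBR1, the type I TGF-beta receptor, rose with dBRD9-A in GFP cells by 0.19 (adjusted p = 0.0248) and ACVR1B, a type I activin receptor, by 0.15 (adjusted p = 0.0261), and the other 11 did not pass. Neither TGFBR1 nor ACVR1B passed without GFP in DMSO replicate 1 (adjusted p = 0.0887 and 0.0854), GFP in DMSO replicate 3 (adjusted p = 0.0887 and 0.0926) or GFP with dBRD9-A replicate 1 (adjusted p = 0.129 and 0.166), and ACVR1B did not pass without the low-count filter (adjusted p = 0.072).

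All 5 tested signalling SMADs passed with SMARCB1 in DMSO, 2 higher and 3 lower, where 65% of all tested genes passed. SMAD2 rose (0.60) and SMAD3 fell (-0.35), both of the TGF-beta branch, and SMAD9 of the BMP branch fell (-0.95). SMAD1 had 0 to 3 counts per library. In GFP cells with dBRD9-A SMAD9 rose from 39.5 ± 1.34 to 49.1 ± 2.86 CPM (0.31, adjusted p = 7.59e-05) and SMAD4 by 0.08 (adjusted p = 0.0454). SMAD4 did not pass with the replicate block (adjusted p = 0.0692), without the low-count filter (adjusted p = 0.241), or without any 1 library other than replicates 2 and 3 of SMARCB1 with dBRD9-A (adjusted p up to 0.220).

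Inside the cell, 7 of 8 inhibitors could be tested. BAMBI, a receptor-like protein without a kinase domain, went from 244 ± 6.92 CPM in GFP to 50.5 ± 2.01 CPM in SMARCB1 cells in DMSO (-2.27, adjusted p = 1.99e-19). SKIL, a SMAD co-repressor, went the other way (0.84). Of the 7 inhibitors, 4 rose with dBRD9-A in GFP cells and none fell, among them SKIL (0.43, adjusted p = 1.21e-06), BAMBI (0.27, adjusted p = 6.65e-06) and SMURF2, a ubiquitin ligase for SMADs (0.17, adjusted p = 0.00706).
Outside the cell, 6 of 15 antagonists could be tested, and 5 were higher and 1 lower with SMARCB1 in DMSO. SOST, or sclerostin, rose by 1.58, NBL1 by 1.25 and CHRD, or chordin, by 0.74. SOST was the only one of the 6 to pass with dBRD9-A in GFP cells (0.36, adjusted p = 1.13e-05).

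All 8 genes for ligand latency and processing could be tested. With SMARCB1 in DMSO 4 were higher and 3 lower, the 3 being LTBP2 (-2.66), LTBP3 (-1.001) and LTBP4 (-0.99), binding proteins or relatives of binding proteins of latent TGF-beta. LTBP1, a further binding protein of this family, was not among the 3 lower genes, so the family did not fall as a whole. The median log2 fold change of the 8 genes was 0.305. THBS1, a matrix protein that can activate latent TGF-beta, went with dBRD9-A in GFP cells from 37.2 ± 2.53 to 19.0 ± 0.758 CPM (-0.97, adjusted p = 8.36e-09), and LTBP2 from 114 ± 2.05 to 66.4 ± 4.53 CPM (-0.78, adjusted p = 8.22e-10). FURIN, the protease that cuts the ligand precursors, rose by 0.22 (adjusted p = 0.00277).

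Among the 5 other BMP targets 1 was higher and 2 were lower with SMARCB1 in DMSO, and 2 did not pass. ID4, the fourth ID gene, was at 64.9, 64.8 and 65.7 CPM in GFP cells in DMSO and at 17.0, 15.9 and 16.0 CPM in SMARCB1 cells in DMSO, without overlap (-2.00, adjusted p = 1.01e-17). In GFP cells with dBRD9-A ID4 reached 92.7 to 100 CPM (0.57, adjusted p = 2.48e-09), so all 4 ID genes rose there. MSX1, a homeobox gene, rose as well (0.34, adjusted p = 0.000535), and the other 3 targets did not pass.
Of 5 tested TGF-beta targets, 3 were higher and 1 lower with SMARCB1 in DMSO, the 3 being CDKN2B, the cell cycle inhibitor p15 (3.07), CCN2 (0.66) and TGIF1, a SMAD co-repressor (0.50). KLF10 (0.35, adjusted p = 6.12e-06) and TGIF1 (0.15, adjusted p = 0.00148) rose with dBRD9-A in GFP cells, and the other 3 did not pass.
The 3 E proteins, the partners of the ID proteins, were all higher with SMARCB1 in DMSO, where 33.5% of all tested genes were higher. TCF4 rose by 0.82 (adjusted p = 2.93e-08), TCF3 by 0.29 (adjusted p = 0.000226) and TCF12 by 0.10 (adjusted p = 0.018). TCF12 did not pass without GFP in DMSO replicate 1 (adjusted p = 0.0949) or 3 (adjusted p = 0.0735) or SMARCB1 in DMSO replicate 1 (adjusted p = 0.0585). None of the 3 passed with dBRD9-A in GFP cells.

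**Figure D3:**
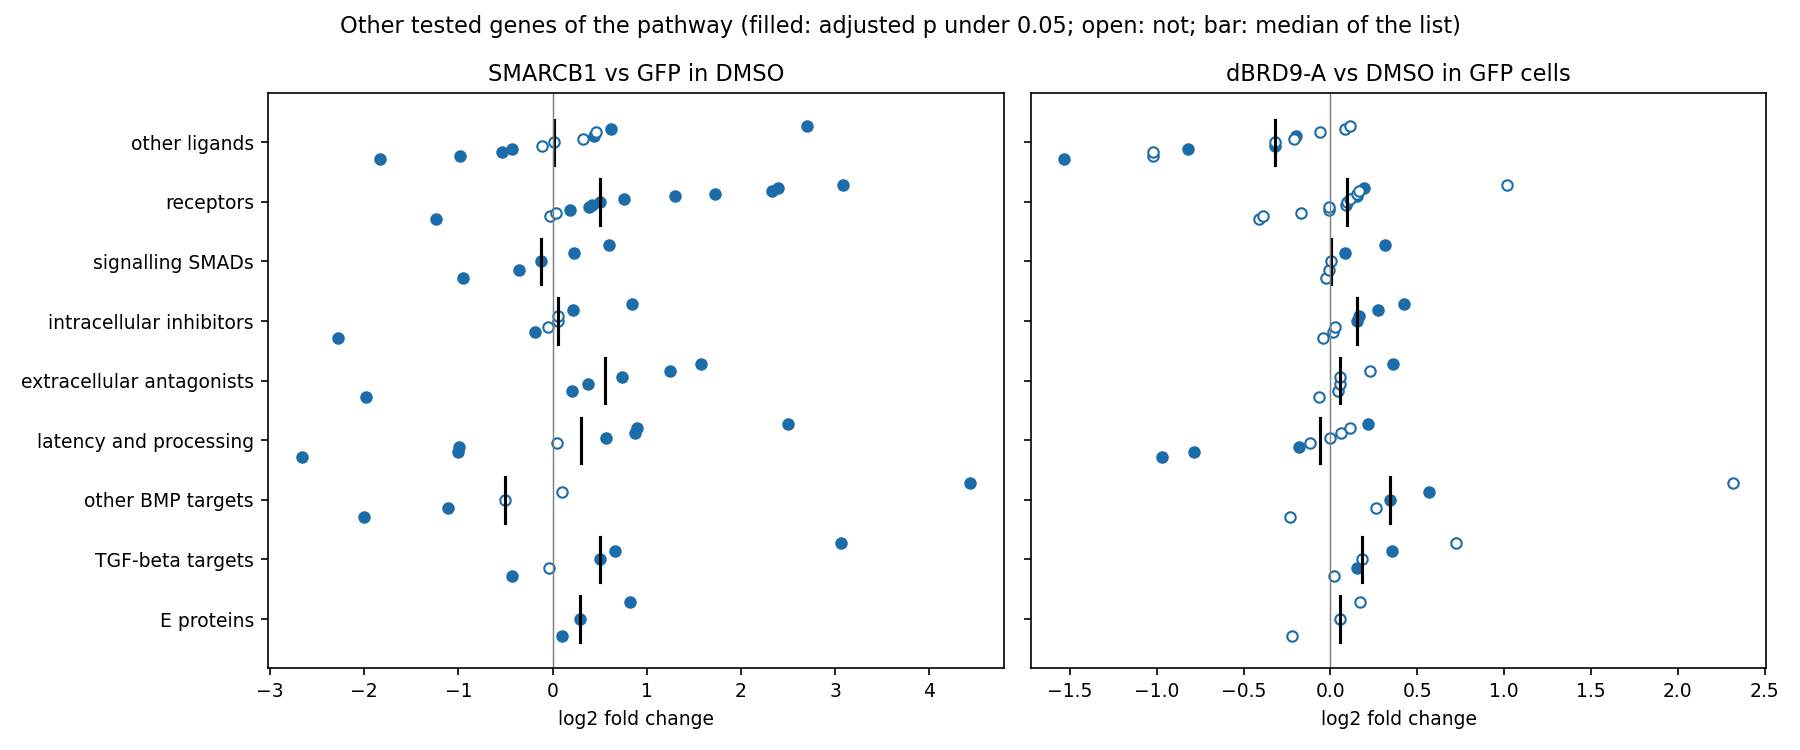
Log2 fold change (horizontal axes) of the 63 other tested pathway genes in 9 lists, for SMARCB1 against GFP in DMSO (left) and dBRD9-A against DMSO in GFP cells (right). Filled points have an adjusted p under 0.05, open points do not, and black bars are list medians. With SMARCB1 10 of 13 receptors are filled on the right of 0, and with dBRD9-A 4 of 11 other ligands are filled, all on the left.

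In SMARCB1 cells 4 of the 63 genes passed with dBRD9-A, BAMBI (0.15, adjusted p = 0.0363), KLF10 (0.17, adjusted p = 0.0358), LTBP1 (-0.13, adjusted p = 0.00985) and LTBP2 (-0.35, adjusted p = 0.00237). In a fit of the 6 SMARCB1 libraries alone, 3 of them did not pass, BAMBI (adjusted p = 0.141), KLF10 (adjusted p = 0.116) and LTBP1 (adjusted p = 0.0508). With spike-in scaling the values were 0.0088 for BAMBI (adjusted p = 0.937) and 0.03 for KLF10 (adjusted p = 0.746). LTBP1 also did not pass without SMARCB1 in DMSO replicate 3 (adjusted p = 0.0635). BAMBI did not pass without GFP in DMSO replicate 1, SMARCB1 in DMSO replicates 1 or 2, or SMARCB1 with dBRD9-A replicates 1 or 3 (adjusted p up to 0.180). KLF10 did not pass without GFP in DMSO replicate 1, GFP with dBRD9-A replicate 1, any replicate of SMARCB1 in DMSO, or SMARCB1 with dBRD9-A replicates 1 or 3 (adjusted p up to 0.191). The interaction passed for 9 of the 63 genes, 4 positive and 5 negative (14.3% against 3.8% of all genes tested). Between SMARCB1 and GFP cells, both with dBRD9-A, 54 passed, 34 higher and 20 lower (85.7% against 63.3%).

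The sizes of the changes with dBRD9-A depended on the scaling of the libraries. ERCC spike-in RNAs, synthetic transcripts added from outside, took 1.265% to 1.302% of the counts of GFP cells in DMSO, against 0.9634% to 1.06% after dBRD9-A, and the labels do not say how they were added. With spike-in scaling the median change over all tested genes, on the log2 scale, was 0.165 for SMARCB1 in DMSO, 0.357 for dBRD9-A in GFP cells, -0.135 for dBRD9-A in SMARCB1 cells, -0.319 for SMARCB1 against GFP under dBRD9-A and -0.491 for the interaction. The share of called genes that were higher then went from 51.4% to 72.6%, from 46.7% to 98%, from 35.2% to 4.47%, from 52% to 19.1% and from 56.5% to 0.586% in the same order.
With dBRD9-A in GFP cells all 7 genes were called higher on that scale. Relative to the shifted median, ID2 changed by 0.69, ID3 by 0.41, ID1 by 0.40 and BMP4 by 0.15, next to 0.22 for TGFB1, 0.19 for TGFB3 and 0.07 for BMP7. For SMARCB1 in DMSO the direction of all 7 genes was the same under both scalings.

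**Figure D4:**
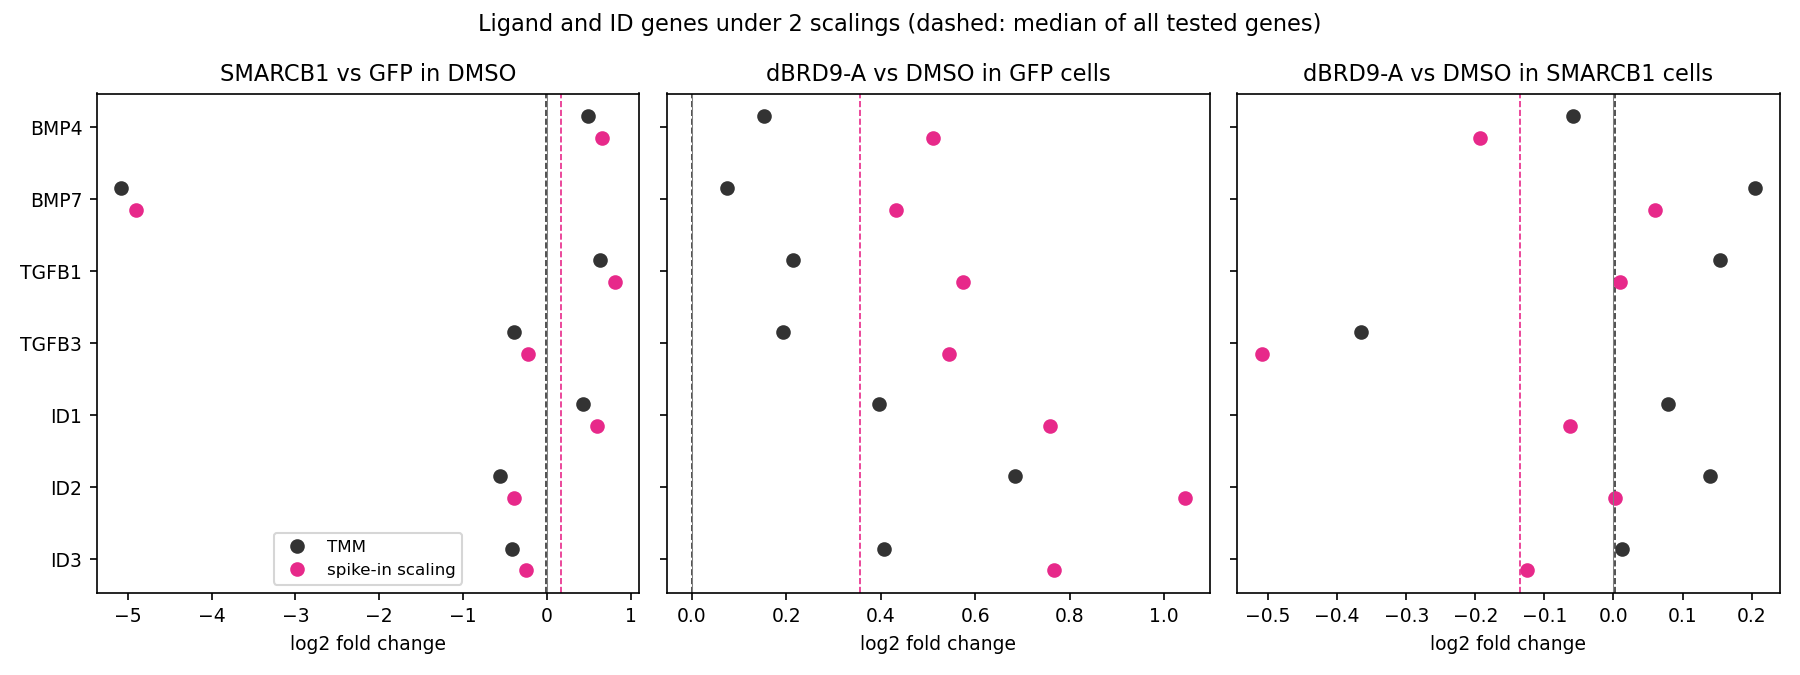
Log2 fold change (horizontal axes) of the 7 tested genes with TMM scaling (black) and spike-in scaling (pink) in 3 comparisons, with dashed lines at the median of all tested genes. In GFP cells the pink points lie right of the black ones by about the shift of the median, 0.357, and ID2 stays farthest from its median at 0.69.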

How the data were processed

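RNA was measured by RNA sequencing in 12 libraries of G401 cells, 3 per group, each treated for 24 hours. Per the labels' protocols, RNA came from a Qiagen RNeasy Plus kit and libraries from a TruSeq Stranded mRNA kit. The values in the 3 tables that the authors deposited are expected counts of genes, as RSEM estimates them when it shares reads that map to several genes. STAR, RSEM 1.3.1 and DESeq2, and the build GRCh37 (hg19), are named in the submitters' processing notes, with no role given for DESeq2. The annotation and the strand setting of the counting are not given in the sources used here. The tables share 6 columns, with 0 differing values.

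Expected counts were rounded, spike-in rows entered neither library sizes nor tests, and symbols were matched by Ensembl identifier for 51996 of 57820 identifiers. GDF2, GDF10 and PECAM1 had no matched identifier. Tests ran in R 4.3.3 with edgeR 4.0.16: filterByExpr with a minimum count of 10 (15750 genes), TMM factors of 0.9765 to 1.016, and glmQLFit and glmQLFTest with 1 coefficient per group on all 12 libraries. Benjamini-Hochberg adjustment ran over all 15750 genes, and intervals are 95% intervals from the same fit. The script was tested on simulated data. Alternatives were RLE and spike-in scaling, DESeq2 1.42.0, no low-count filter, only the groups of the comparison, a replicate block, and leaving out each library. The 10 genes and the lists were chosen with earlier results of these data known. Beyond the 10 genes, the text names from each list up to 3 called genes per comparison with the largest change, a mean of at least 50 counts and groups that did not overlap. A gene of the TGF-beta target list is not reported here and enters none of the list counts.

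Within groups, libraries differed beyond sampling noise (chi-square per degree of freedom 3.02 to 26.2). Each was counted as 1 library in the tests, but this spread may be technical and does not show that they were separate cultures. Gene counts of 34.97 to 58.54 megacounts per library set the floor of 3 counts at 0.0516 to 0.0847 CPM. In GENCODE 29, which is not the authors' annotation, BMP7, TGFB1, TGFB3, INHBA and ID2 overlap genes on the opposite strand and TGFB2 a gene on its own strand, as do GDF1, NBL1, GDF5, GDF15, TGFBR3, ACVR1B, SMAD2, SMAD4, SMAD9, LTBP1, THBS1, TGIF1 and TCF3 among the named pathway genes, so their reads may be divided between genes. Several other named pathway genes, such as ID4, RGMB and LTBP2, overlap genes on the opposite strand alone. BMP2, BMP4, ID1 and ID3 overlap none. Promoter windows are from RefSeq on GRCh38.p14 and were used for sequence only.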

Additional observations from a re-analysis of the deposited data

Results flagged for a closer look

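The response to dBRD9-A differed between SMARCB1 and GFP cells for 4 of the 7 tested genes and 9 of the 63 pathway genes. Of all tested genes 3.8% passed. The test was the interaction in edgeR's quasi-likelihood fit with Benjamini-Hochberg adjustment. Values are the log2 response in SMARCB1 cells minus that in GFP cells, with n = 3 libraries a group. The difference was negative for BMP4 (-0.21), ID1 (-0.32), ID2 (-0.54) and ID3 (-0.40), and also for ID4 (-0.45), MSX1 (-0.41), SOST (-0.38), SKIL (-0.31) and TGIF1 (-0.23). These 9 genes rose with dBRD9-A in GFP cells. The difference was positive for GDF5 (1.20), THBS1 (0.98), BMP6 (0.82) and LTBP2 (0.44), 4 genes that fell with dBRD9-A in GFP cells. The ID1 difference did not pass with the replicate block (adjusted p = 0.0683) or in 9 of 12 fits that each left out 1 library.

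THBS1 showed the positive kind plainly, with 37.2 ± 2.53 CPM in DMSO and 19.0 ± 0.758 CPM with dBRD9-A in GFP cells, against 38.3 ± 2.71 and 38.5 ± 2.20 CPM in SMARCB1 cells. ID4 showed the negative kind, with 65.1 ± 0.491 and 96.6 ± 3.66 CPM in GFP cells against 16.3 ± 0.607 and 17.6 ± 0.282 CPM in SMARCB1 cells. With spike-in scaling the value for BMP6 (0.32, adjusted p = 0.108) did not pass, and that for LTBP2 was -0.07 (adjusted p = 0.603). The SMARCB1 transcript was itself lower with dBRD9-A in SMARCB1 cells, and its part in these differences was not tested.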

How the results depend on the processing

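For the 7 tested genes in 5 comparisons, RLE scaling kept the direction and the side of the threshold in 35 of 35 results, and DESeq2 in the 33 for which it gave an adjusted p. Leaving out 1 library at a time did so in 400 of 420 results, with 4 calls gained, 9 lost and 7 changes of sign in values that did not pass either way. With spike-in scaling 11310 genes and 7 of the 10 listed genes were called for dBRD9-A in GFP cells, 873 genes for dBRD9-A in SMARCB1 cells, and 11270 genes and 7 listed genes for the interaction. The main counts were 2504 and 4, 304, and 598 and 4. Some values of listed and named genes changed sign under spike-in scaling and were called with at least 1 of the 2 scalings. For SMARCB1 against GFP under dBRD9-A they were -0.047 (BMP4), -0.22 (ID1) and -0.15 (TCF3). For dBRD9-A in GFP cells it was 0.042 (GDF15), and for the interaction -0.37 (BMP7) and -0.066 (LTBP2). Among listed genes 2 uncalled values also changed sign, for ID1 (-0.062) and ID3 (-0.13) with dBRD9-A in SMARCB1 cells. The median of all genes shifted in the same direction each time. Without a change of sign, BMP7 (0.43), TGFB1 (0.57) and TGFB3 (0.55) were called only with spike-in scaling for dBRD9-A in GFP cells. For the interaction TGFB1 (-0.57) and TGFB3 (-1.05) were called only with it. For dBRD9-A in SMARCB1 cells 652 genes and 1 listed gene, ID2, were called without the low-count filter, and 159 genes with the groups of the comparison alone; the cause was not tested.

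Leaving out 1 library gave 9648 to 10491 genes for SMARCB1 in DMSO, 1778 to 2804 for dBRD9-A in GFP cells, 169 to 422 for dBRD9-A in SMARCB1 cells, 9352 to 10072 for SMARCB1 against GFP under dBRD9-A and 422 to 862 for the interaction. Of the listed genes it called 6, 4 to 5, 0 to 1, 6 to 7 and 3 to 4 in the same order. The lowest counts for dBRD9-A in SMARCB1 cells came without SMARCB1 in DMSO replicate 2 (174) or 3 (169) or SMARCB1 with dBRD9-A replicate 3 (196). ID1 passed for SMARCB1 against GFP under dBRD9-A without SMARCB1 with dBRD9-A replicate 1 (0.16, adjusted p = 0.035) and without the low-count filter (0.12, adjusted p = 0.00213).

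Libraries of the same replicate number did not deviate together (r from -0.13 to 0.09 over 18 pairs, against -0.11 to 0.15 over 36 pairs with different numbers). No pairing by replicate number was seen, but with 3 libraries a group these values cannot show that a shared batch was absent. With the replicate block 10113, 2233, 254, 9812 and 529 genes were called in the 5 comparisons, and of the 35 results for listed genes only the ID1 interaction lost its call. Depth limits BMP2, TGFB2 and INHBA, which could not be tested, and TGFB3, whose 95% intervals are the widest of the 7.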
